A study of Mus musculus with 8 samples.

Results

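Gene expression in MOPC tumours was compared between Tlr3/7/9-/- (KO) and wild-type (WT) host mice at day 6 after subcutaneous injection, over all measured genes. MOPC is a mouse oropharyngeal carcinoma cell line. The comparison took the 2 arrays labelled KO at day 6 and the 2 labelled WT at day 6, which are 4 of the 8 arrays of the series. The other 4 arrays are 2 KO and 2 WT tumours of day 4, and they enter here as part of the estimate of the spread and as a second set of tumours. All hosts were C57BL/6 mice that received the same cell line, and the KO hosts lack Tlr3, Tlr7 and Tlr9 in every cell of the body. The receptors are missing from the host cells only, since the injected tumour cells were not knocked out. The mice were male and female and from weeks to a few months old, and neither sex nor exact age is given for a single array.

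Toll-like receptors (TLRs) 3, 7 and 9 sit in endosomes, where they recognise nucleic acids. TLR3 binds double-stranded RNA and signals through the adaptor TRIF. TLR7 binds single-stranded RNA, TLR9 binds CpG DNA, and both signal through MyD88. The pathways end in NF-kappaB and in interferon regulatory factors, which switch on inflammatory cytokines and type I interferon. In a tumour these receptors are found on macrophages, dendritic cells and B cells, and TLR3 also on fibroblasts and epithelial cells. A subcutaneous tumour mixes the injected carcinoma cells with host leukocytes, fibroblasts and vessels, and the skin, fat and muscle around it can come along in the dissection.

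Each array held 45101 probe sets with 1 linear signal each, scaled by the authors to the same trimmed mean. The median signal of the 4 arrays of day 6 was 133.2 to 143.7, and the Spearman correlation between the tumours of a group was 0.985 for WT and 0.976 for KO. Signals were compared as log2(signal + 16) with 1 probe set per gene, on which scale the change of a gene with a low signal is understated. In all, 12976 genes were tested with limma, and a gene was called at an adjusted p under 0.05. Signals are given below for replicate 1 and then replicate 2 of each group. Each tumour of day 6 came from its own mouse. Whether this also held at day 4 is not stated, and p-values measure only the spread between the arrays of a group. With 2 tumours against 2, an exact permutation test of a single gene cannot give a two-sided p below 0.333. All 4 tumours of day 6 had high signals of Xist, which silences an X chromosome in females (5579.1 to 7121.0), and the Y-linked gene Eif2s3y had 10.2 to 33.0. The tumours of day 4 showed the reverse, with Xist at 44.6 to 142.1 and Eif2s3y at 798.1 to 1176.7, so that day and sex cannot be told apart between the days.

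The labelled tissue was first set against markers of its cell types. Krt8 and Krt18, keratins of simple epithelium, had signals of 23383.4 to 35100.3 and 16570.4 to 27008.3 in the 4 tumours, and Cdh1 (E-cadherin) had 1202.6 to 2441.6. Other epithelial markers were lower, with Trp63 at 345.9 to 802.1 and Epcam at 153.2 to 238.9. Krt14 had 2834.4 to 11717.0, and Krt5 had at most 92.1 outside KO tumour 2. Leukocytes, macrophages, fibroblasts and endothelium were all present by Ptprc (5973.9 to 7592.3), Csf1r (15794.2 to 19543.8), Col3a1 (45413.6 to 52740.0) and Cdh5 (2023.8 to 2705.6). The T cell markers Cd3e and Cd4 lay below the expression filter, with at most 91.3 and 33.9, and Cd3g and Cd8a had at most 284.4 and 200.8. Probe sets differ in brightness, so a low signal does not give the number of cells.

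KO tumour 2 held skin and skeletal muscle RNA. The keratin gene Krt5, of the basal layer of the epidermis, had signals of 92.1 and 85.8 in the WT tumours, 62.1 in KO tumour 1 and 6009.2 in KO tumour 2. Ckm, the creatine kinase of muscle, had 56.1, 108.0, 64.9 and 4549.6. In KO tumour 2, 69 genes lay at least 2 above the other 3 tumours on the log2 scale and 1 lay as far below them, while the other tumours had 4 to 7 such genes in all. Among the 69 were 20 genes of a skeletal muscle list, 11 of a cornified skin list and 1 of a hair follicle list. The muscle gene Tnnc2 (troponin C), which stood farthest apart, had signals of 11.5, 8.4, 7.3 and 7794.4, a margin of 8.15 on the log2 scale. The summed signal of the 27 tested muscle genes was 16027 and 11987 in the WT tumours, 13737 in KO tumour 1 and 94615 in KO tumour 2. For the 19 genes of cornified skin it was 3706, 3842, 4252 and 31608. KO tumour 1 lay near the WT tumours in both sums, and results are given below for each KO tumour.

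The targeted genes came first. Tlr7 had signals of 471.3 and 466.1 in the WT and 80.1 and 10.8 in the KO tumours (log2 fold change -3.26, standard error 0.61, n = 2 tumours per group). The genotypes did not overlap, but limma gave adjusted p = 0.704. The 3 probe sets of this gene gave -3.26 to 0.23. One that lies in exons the KO mice retain would say nothing about the genotype, but where these probe sets lie was not tested. Tlr3 had 639.5 and 543.9 in the WT and 338.6 and 224.0 in the KO tumours (log2 fold change -1.05, limma adjusted p = 0.713), also without overlap. Tlr9 lay below the expression filter and was not lower in the KO tumours, with 20.8 and 58.5 in the WT and 123.7 and 84.2 in the KO tumours. Genes lying beside the targeted ones on the chromosome were checked in the gene order of the mouse assembly GRCm38.p6. Among 100 tested neighbours of Tlr3, 58 of Tlr7 and 100 of Tlr9, 0 were separated by at least 1 on the log2 scale between the genotypes.

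Of the other 20 tested receptor and adaptor genes of the TLR pathway, 14 had a negative log2 fold change. In both KO tumours 9 lay lower than in both WT tumours (20.9% of all genes tested did) and 3 higher (16.1% of all genes). limma called 0 of them, and 1, Ly96, a partner of TLR4, lay lower at an unadjusted p under 0.05 (over all genes, 4.01%). The median was -0.20 in KO tumour 1 and -0.29 in KO tumour 2. Unc93b1, which carries the endosomal TLRs from the endoplasmic reticulum, had signals of 2137.4 and 1862.5 in the WT and 1552.1 and 1051.3 in the KO tumours (-0.64). Tlr2, a receptor for bacterial lipoproteins at the cell surface, had 1855.7 and 1699.1 against 1353.9 and 1194.9 (-0.48), and Tlr13, an endosomal receptor for bacterial RNA, had 1600.3 and 1630.5 against 1392.7 and 1140.0 (-0.35). The adaptor gene Myd88 overlapped between the genotypes, with 4109.8 and 3121.1 against 4669.4 and 3671.0, and so did Ticam1, which encodes TRIF, with 451.0 and 344.2 against 341.8 and 406.5. Tirap, a bridging adaptor, lay higher in both KO tumours, with 1740.9 and 1600.9 against 1900.2 and 2114.5. At day 4, 17 of the 20 genes were negative.

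Over all genes, few differences between the genotypes exceeded the spread between tumours. limma called 2 of 12976 genes (0.0154%), Hal and Cd209a. Without WT tumour 1, WT tumour 2 or KO tumour 2 limma called 0 genes, without KO tumour 1 it called 26, without either WT tumour of day 4 it called 7, and without either KO tumour of day 4 it called 0. At an unadjusted p under 0.05 there were 304 genes higher in KO (2.34%) and 520 lower (4.01%). The KO tumours lay on one side of both WT tumours for 2091 genes in the higher direction (16.1%) and 2706 in the lower (20.9%). A difference of at least 1 on the log2 scale was seen for 269 genes between the group means, for 356 genes between the WT tumours and for 572 genes between the KO tumours. The standard deviation of the differences was 0.36 between the means, 0.41 between the WT tumours and 0.53 between the KO tumours. Means of 2 tumours vary less than single tumours, so these counts and deviations do not rank the genotype against the replicates. To find genes whose groups lay well apart, a gene was named separated when the nearest values of the genotypes were at least 1 apart on the log2 scale. The spread within a genotype can still exceed this distance. It was met by 17 genes higher in KO (0.131%) and 20 genes lower in KO (0.154%). Of these 37 genes, 35 did not pass limma's test (adjusted p = 0.171 to 0.875), and 1, Klk7, belonged to the skin, hair or muscle lists.

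**Figure D1:**
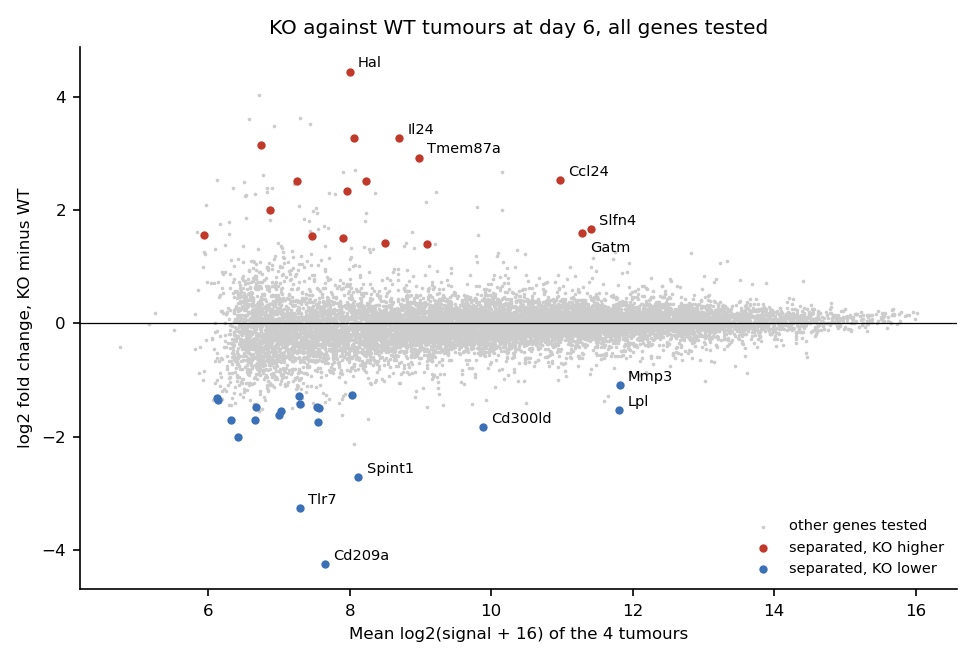
Log2 fold change (KO minus WT) against the mean log2(signal + 16) of all 4 day 6 tumours, shown for 12976 genes (1 point per gene). The 17 genes separated upwards (red) and the 20 separated downwards (blue) are marked, with Hal at 4.45 and Cd209a at -4.26 at the ends.

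Hal rose in the KO tumours. It encodes histidine ammonia-lyase, which starts the breakdown of histidine and is best known from liver and epidermis. Its signals were 43.7 and 34.0 in the WT and 817.8 and 1703.1 in the KO tumours, with no overlap and a log2 fold change of 4.45 ± 0.42 (limma adjusted p = 0.0228). Both KO tumours were high, and without KO tumour 2 the log2 fold change was 3.93. The part of skin in the values of Hal was not tested. Of the 19 tested genes of amino acid and histidine metabolism, Hal included, 7 lay higher and 3 lower in both KO tumours (over all genes, 16.1% and 20.9%), with a median log2 fold change of 0.22. Hdc, which makes histamine from histidine in mast cells, basophils and neutrophils, had 387.6 and 260.0 in the WT and 927.1 and 815.9 in the KO tumours (1.41, limma adjusted p = 0.875). Arg2, a mitochondrial arginase, had 127.5 and 103.9 against 286.8 and 253.7. Gatm, which makes the precursor of creatine from arginine, had 1562.4 and 1293.7 against 4908.3 and 3805.3 (1.59, limma adjusted p = 0.704). Hnmt, the enzyme that inactivates histamine by methylation, lay lower, with 430.2 and 209.3 in the WT and 136.2 and 187.0 in the KO tumours.

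Cytokine and chemokine genes were separated in both directions, with Il24 and Ccl24 higher and Il20 and Ccl1 lower in the KO tumours. Il24, a cytokine gene of the IL-20 family, had 133.8 and 103.7 in the WT and 996.5 and 1635.5 in the KO tumours (log2 fold change 3.27 ± 0.42, limma adjusted p = 0.171). Without KO tumour 2 the log2 fold change of Il24 was 2.92, and the part of skin in its values was not tested. Il20, its neighbour in the genome and a member of the same family, went the other way, with 111.0 and 79.4 in the WT and 28.4 and 27.7 in the KO tumours (-1.32, limma adjusted p = 0.76). Ccl24, also called eotaxin 2, attracts eosinophils through the receptor CCR3, and had 1052.0 and 629.9 against 6991.4 and 3323.3 (2.54 ± 0.38, limma adjusted p = 0.326). Ccl1, a chemokine gene of activated T cells and mast cells, was separated downwards, with 342.2 and 310.5 against 140.6 and 50.8 (-1.74). Eosinophils themselves could hardly be followed, since 1 of 9 measured genes of the eosinophil and basophil list, the basophil protease gene Mcpt8, passed the expression filter.

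Slfn4, a Schlafen gene of myeloid cells, had 1263.6 and 1802.9 in the WT and 6227.1 and 3703.9 in the KO tumours (1.66 ± 0.29, limma adjusted p = 0.617). Mcpt2, a mast cell protease gene, had 224.2 and 14.6 against 491.5 and 1335.9 (3.27), with WT tumours that themselves differed widely. Car4, a carbonic anhydrase anchored in the plasma membrane, had 176.2 and 66.3 against 503.9 and 965.6 (2.51). Zic1, a zinc finger transcription factor gene of the developing nervous system, had 131.8 and 67.7 against 419.6 and 711.2 (2.34). In each of these the lower KO tumour exceeded the higher WT tumour more than 2-fold.

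Tmem87a, which encodes a membrane protein of the Golgi, had 232.2 and 118.0 in the WT and 1572.2 and 1208.7 in the KO tumours (2.93 ± 0.41, limma adjusted p = 0.241). Klk7, a kallikrein protease gene of the epidermis, had 40.1 and 7.2 against 124.4 and 710.2, and Col17a1, a collagen gene of the basal epidermal attachment, had 41.1 and 56.1 against 128.2 and 906.0. Both were far higher in the tumour with skin RNA than in KO tumour 1, and the part of skin in these values was not tested. The potassium channel gene Kcnj15 had 108.2 and 70.3 against 269.9 and 299.2. BC018473 had 31.2 and 56.5 against 171.8 and 275.9, and Fam78b and Glod5 had log2 fold changes of 1.56 and 1.51. BC023105, outside the rule for named genes and chosen after its values were seen, had 1.42. BC018473, Fam78b and Kcnj15 had a further probe set that did not move in the same direction (-0.40, -0.47 and -0.14).

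Cd209a fell in the KO tumours. It encodes a C-type lectin of monocyte-derived dendritic cells, the mouse relative of DC-SIGN. Its signals were 965.3 and 770.9 in the WT and 52.1 and 15.1 in the KO tumours, with a log2 fold change of -4.26 ± 0.40 (limma adjusted p = 0.0228). Without KO tumour 2 it was -3.69 (limma adjusted p = 0.058). Its relative Cd209d had 337.1 and 164.6 against 55.8 and 125.9, also without overlap, while Cd209b and Cd209c lay below the expression filter. Cd300ld, an activating receptor gene of myeloid cells, had 1771.4 and 1743.0 in the WT and 768.8 and 302.3 in the KO tumours (-1.83 ± 0.36, or -1.18 without KO tumour 2, limma adjusted p = 0.704). Ear3, a ribonuclease gene of the eosinophil-associated family whose members are near copies of each other, had 294.4 and 308.6 against 135.9 and 66.6. Cd209a, Cd300ld and Ear3 were lowest in KO tumour 2 and lay below the WT range in KO tumour 1 as well.

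Lpl, which encodes lipoprotein lipase of fat, muscle and macrophages, had 6311.6 and 5840.7 in the WT and 2258.8 and 1932.7 in the KO tumours (-1.53, limma adjusted p = 0.756). Mmp3, the matrix protease stromelysin 1 of fibroblasts, had 5200.2 and 5290.2 against 2456.6 and 2445.5 (-1.09 ± 0.22, limma adjusted p = 0.704). For both genes the tumours within a genotype were close to each other. Spint1, an inhibitor of epithelial serine proteases, had 1032.1 and 472.9 in the WT and 46.3 and 172.2 in the KO tumours (-2.72, limma adjusted p = 0.704). Aldh1a2, which makes retinoic acid, had 260.9 and 331.5 against 86.6 and 105.3, and Ramp1, a subunit of the receptor for the neuropeptide CGRP, had 396.1 and 384.9 against 167.2 and 139.6. C6, a component of the membrane attack complex of complement, had 143.6 and 168.0 against 33.1 and 60.4 (-1.48). The rest of the genes separated downwards were Prss51 (-2.01), Zglp1 (-1.70), Pigz (-1.70), Sult1a1 (-1.62), Zfp709 (-1.55), Mm2pr (-1.42), 1600014C23Rik (-1.35) and Fbln7 (-1.29). Ramp1, 1600014C23Rik and Fbln7 fall outside the rule for named genes and were chosen after their values were seen. Ramp1 and Pigz each had a further probe set that went the other way (1.27 and 0.69). Of the 20 genes, 14 had a mean KO signal under 100, where background makes up more of a signal.

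**Figure D2:**
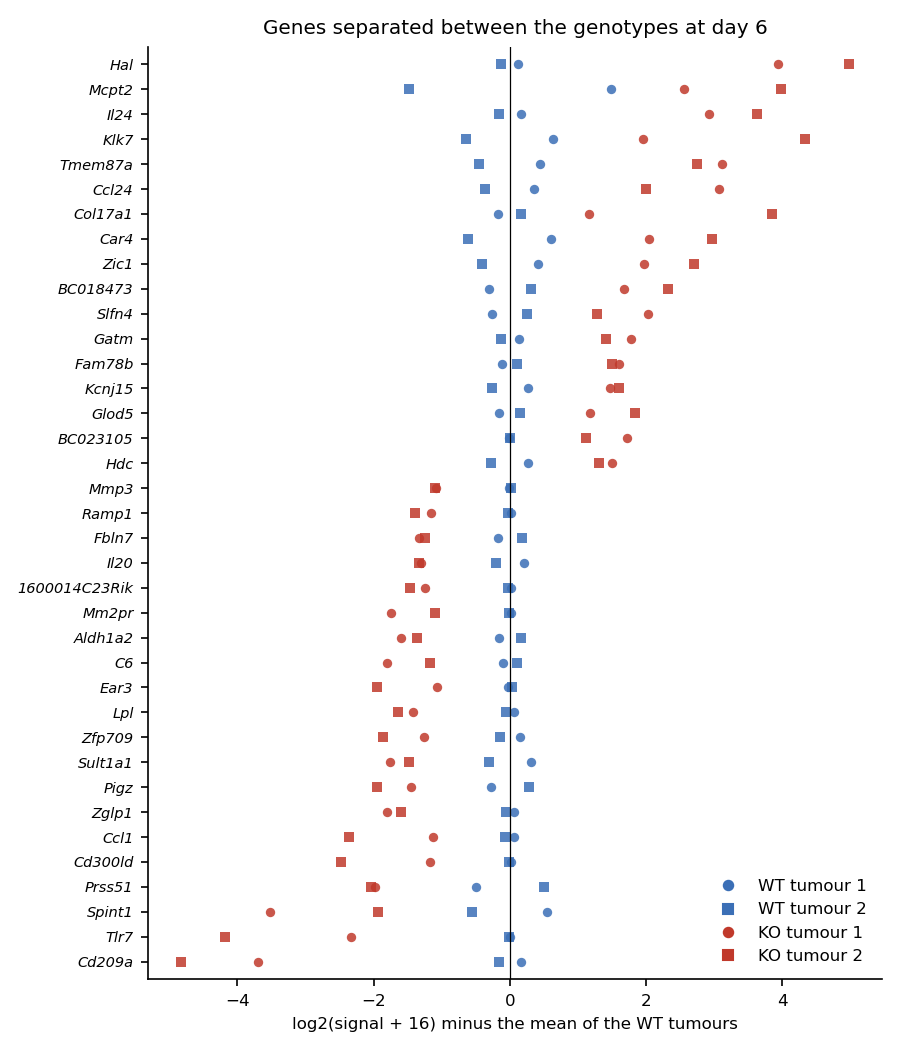
Log2(signal + 16) of the 37 separated genes in the 4 day 6 tumours, after subtracting the gene's WT mean (blue, WT; red, KO; circles, tumour 1; squares, tumour 2). The KO tumours of Col17a1 and Klk7 lie far from each other, and those of Mmp3 and Fam78b close together.

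The tumours of day 4 gave separate measurements of these 37 genes. Muscle genes were high in replicate 2 of both genotypes at day 4. Ckm had 100.5 and 19604.8 in the WT and 17.6 and 2195.7 in the KO tumours of day 4. Acta1, a muscle actin gene, had 423.0 and 34991.8 against 652.8 and 9824.4. These arrays also enter limma's estimate of the spread, and the part of muscle in the day 4 values was not tested. Of the 20 genes separated downwards at day 6, 18 had a negative log2 fold change at day 4 (90%), against 48.3% of all genes tested. In 12 of the 20, both KO tumours of day 4 lay below both WT tumours, which held for 16.8% of all genes. These 12 were Cd209a, Tlr7, Spint1, Cd300ld, Pigz, Sult1a1, Zfp709, Lpl, C6, Fbln7, Ramp1 and Mmp3. Of the 17 genes separated upwards, 10 had a positive log2 fold change at day 4 (58.8%), against 51.7% of all genes. In 7 of them, Hal, Mcpt2, Tmem87a, Zic1, BC018473, Gatm and Kcnj15, both KO tumours of day 4 lay above both WT tumours, against 19.6% of all genes. The median log2 fold change of the genes separated upwards was 2.34 at day 6 and 0.42 at day 4, and that of the genes separated downwards -1.54 and -1.03. Values at day 6 that were chosen for their size are larger by that choice, so the medians of the 2 days are not compared.

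Single genes showed each of these patterns. Hal had signals of 28.6 and 5.8 in the WT and 2947.1 and 2920.0 in the KO tumours of day 4 (6.56, limma adjusted p = 0.00199), and Tmem87a had 184.8 and 71.4 against 1372.9 and 1421.1 (3.41, limma adjusted p = 0.104). Il24 did not show its day 6 levels at day 4, with 141.1 and 52.1 in the WT and 130.0 and 114.7 in the KO tumours. Ccl24 and Car4 went the other way at day 4, with log2 fold changes of -1.92 and -1.59. In limma's test of the difference between the KO effects at day 6 and day 4, 0 of 12976 genes passed, and 568 had an unadjusted p under 0.05. The unadjusted p of this difference was 2.5e-05 for Ccl24 and 0.00117 for Il24 and the adjusted p 0.327 and 0.995 from limma, and the host sex differed between the days as described above.

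**Figure D3:**
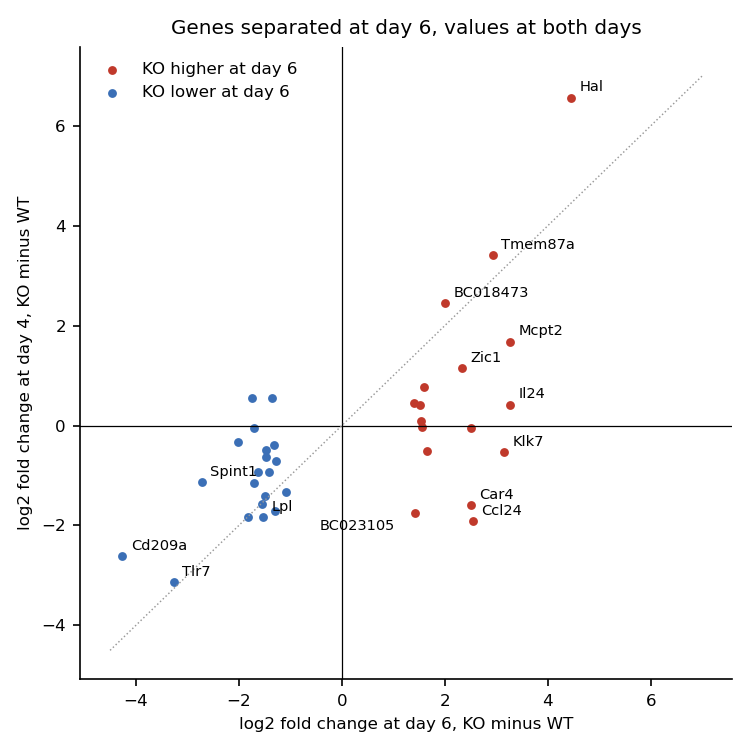
Log2 fold change (KO minus WT) at day 4 against that at day 6 for the 37 genes separated at day 6 (red, KO higher at day 6; blue, KO lower). The dotted line marks equal values at both days. Hal, Tmem87a and Tlr7 lie on the same side at both days, and Ccl24 and Car4 lie on opposite sides.

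Gene lists of pathways and cell types were then described by their counts and medians. Over all genes tested, the median log2 fold change was -0.01. In 22 of 57 lists the medians of the KO tumours lay on opposite sides of the WT mean, and in 24 the WT tumours differed from each other by more than the group means did. The lists below include those in which both KO tumours lay on the same side and those that were carried by 1 tumour, and they are not ordered by this. In bulk tumours, fewer cells of a type and less RNA per cell cannot be told apart.

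Genes of the complement cascade lay lower. Of 17 tested genes, 14 had a negative log2 fold change, 10 lay lower in both KO tumours than in both WT tumours (over all genes, 20.9% did), and the median was -0.57, with -0.44 in KO tumour 1 and -0.54 in KO tumour 2. The chains of C1q, which starts the classical pathway and is made by macrophages, were close within each genotype. C1qa had 27095.2 and 26594.5 in the WT and 18542.0 and 18597.5 in the KO tumours (-0.53), and C1qc had 15269.1 and 14774.3 against 10032.7 and 9995.7 (-0.58). Serping1, the C1 inhibitor, had 5259.9 and 5736.3 against 4032.0 and 2987.9, and Cd59a, which blocks the membrane attack complex, had 436.2 and 435.2 against 184.9 and 316.4. Cr1l, a regulator on the cell surface, had 3487.7 and 3501.0 against 3661.1 and 3624.6. None of the 17 was called by limma, 9 lay lower at an unadjusted p under 0.05 (over all genes, 4.01%), and 13 were negative at both days.

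Of 26 tested macrophage genes, 13 lay lower (over all genes, 20.9%) and 3 higher (over all genes, 16.1%) in both KO tumours, with a median of -0.17. Lower were Apoe, the lipid carrier (15980.6 and 18083.1 against 8036.4 and 10712.3, log2 fold change -0.87), Cd68, a lysosomal marker (7363.9 and 7379.9 against 5031.3 and 4941.5, -0.56), and Adgre1, which encodes F4/80 (5444.4 and 5658.2 against 4059.1 and 3246.6, -0.61). The 3 higher genes encode scavenger and endocytic receptors. Msr1 had 4552.1 and 4637.3 in the WT and 8227.7 and 7281.7 in the KO tumours (0.75, limma adjusted p = 0.704), Cd163, the haemoglobin scavenger, had 1413.3 and 1688.1 against 2411.4 and 3997.2 (limma adjusted p = 0.76), and Mrc1, the mannose receptor, had 21757.4 and 21799.2 against 23812.1 and 24929.1. At day 4, 24 of the 26 genes were negative, with a median of -0.47. Msr1 had 0.78 there and Cd163 -0.95.

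Dendritic cell genes lay lower in 19 of 22 tested genes, 12 without overlap (over all genes, 20.9%), with a median of -0.44. It was -0.22 in KO tumour 1 and -0.76 in KO tumour 2. Ccr7, the receptor that guides mature dendritic cells and T cells to lymph nodes, had 645.9 and 443.2 in the WT and 262.4 and 89.0 in the KO tumours (-1.69, limma adjusted p = 0.713). Cd83, a marker of maturation, had 1504.1 and 1611.9 against 1141.3 and 431.9 (-1.13). Without KO tumour 2 these values were -0.99 for Ccr7 and -0.44 for Cd83. Clec4b1, a further C-type lectin, had 284.4 and 455.8 against 151.6 and 116.4 (-1.34). Fscn1, an actin bundler that carcinoma cells also make, had 25540.2 and 24931.7 against 24152.0 and 22578.0. The 4 tested genes of the IL-12 family were all negative, 3 without overlap (over all genes, 20.9%). Ebi3, a subunit of IL-27 and IL-35, had 517.0 and 750.2 in the WT and 367.3 and 300.0 in the KO tumours (-0.88), and Il12b, the shared subunit of IL-12 and IL-23, had 154.1 and 157.1 against 79.5 and 79.7 (-0.84).

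Genes of cytotoxic lymphocytes and NK cells were lower in 14 of 15 tested genes, 10 without overlap (over all genes, 20.9%), with medians of -0.54 in KO tumour 1 and -0.84 in KO tumour 2. The WT tumours differed from each other by 0.29 in the median. Klra8, an activating NK receptor of the Ly49 family whose members are near copies, had 146.8 and 192.8 in the WT and 82.9 and 25.5 in the KO tumours (-1.52, or -0.90 without KO tumour 2, limma adjusted p = 0.756). Klrd1, which encodes CD94, had 906.1 and 746.6 against 384.8 and 452.8 (-0.95), and Ccl5, a chemokine gene of T and NK cells, had 1262.1 and 1129.9 against 760.0 and 495.8 (-0.94). The serine protease gene Gzmc had 1231.5 and 701.4 against 317.9 and 456.9. Gzmb, which encodes granzyme B, did not follow, with 1753.9 and 1274.6 against 1739.6 and 1290.2 (0.00). At day 4, 14 of the 15 genes were also negative, with a median of -0.60. Of 14 tested T cell genes, 1, Il2ra, lay higher and 1, Foxp3, lower without overlap, shares below those of all genes (16.1% and 20.9%). The summed signal of the 13 genes without Thy1, which fibroblasts also express, was 3473 and 3645 in the WT and 3671 and 2431 in the KO tumours.

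Genes of neutrophil attraction lay higher. Of 7 tested neutrophil chemokine genes, 6 had a positive log2 fold change and 4 of them did not overlap (over all genes, 16.1%), with a median of 1.16 (1.26 in KO tumour 1 and 0.71 in KO tumour 2). Cxcl3 had 759.3 and 1105.6 in the WT and 3066.1 and 1518.2 in the KO tumours (1.22), and Ppbp, a platelet chemokine gene, had 639.8 and 762.0 against 2425.5 and 1150.1 (1.24). Cxcl15, the 1 gene of the list that lay lower, had 1994.9 and 1749.8 against 1409.4 and 598.9 (-1.01, or -0.40 without KO tumour 2). None passed limma's test, and 1, Cxcl15, lay lower at an unadjusted p under 0.05 (over all genes, 4.01%). Among 22 tested neutrophil genes, 18 were positive and 9 lay higher in both KO tumours (over all genes, 16.1%), with a median of 0.43. The receptor gene Csf3r, for the growth factor G-CSF, had 438.0 and 420.3 in the WT and 618.5 and 704.2 in the KO tumours (0.60). At day 4 the median of the neutrophil list was -0.23.

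Mast cell genes were higher in 9 of 10 tested genes, 5 without overlap (over all genes, 16.1%), with medians of 0.43 in KO tumour 1 and 0.89 in KO tumour 2. Fcer1a, the IgE receptor of mast cells and basophils, had 93.6 and 71.3 in the WT and 159.3 and 261.4 in the KO tumours (1.17). Cpa3, a granule protease, had 423.0 and 416.8 against 569.1 and 1165.8 (0.93, or 0.42 without KO tumour 2). Kit, the receptor for stem cell factor, did not follow, with 576.6 and 620.1 against 552.9 and 643.7. Mast cells reside in the skin, and KO tumour 2, which held skin RNA, had the higher value of Mcpt2, Cpa3 and Fcer1a and the lower value of Hdc. The part of skin in this list was not tested.

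In the IL-6 pathway, ligand and feedback genes were among those that lay higher. Il6 had 845.7 and 699.9 in the WT and 2123.8 and 1299.4 in the KO tumours (1.09, limma adjusted p = 0.711). Osm, a cytokine gene of the same family, had 465.0 and 522.4 against 1315.9 and 650.1 (0.89), and Socs3, the feedback inhibitor of STAT3 signalling, had 6873.0 and 7261.6 against 15759.9 and 9377.5 (0.78). All 3 were higher in both KO tumours and highest in KO tumour 1. Il1rap, the shared accessory chain of the receptors for IL-1, IL-33 and IL-36, had 968.0 and 883.9 against 1503.1 and 1537.7 (0.71, limma adjusted p = 0.704). The other IL-1 family genes without overlap were Il33, a ligand, and the receptor chains Il18r1 and Il18rap. Of the 15 tested genes of the IL-6 list 6 lay higher and 1 lower without overlap, and of the 12 of the IL-1 list 4 and 0 (over all genes, 16.1% and 20.9%).

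Interferon-induced genes were highest in KO tumour 1. The 21 tested genes of the interferon-gamma response had a median of 1.28 in KO tumour 1 and 0.11 in KO tumour 2, and those of type I interferon 0.64 and -0.25. The WT tumours differed from each other by 0.38 in the median of the interferon-gamma list and by -0.13 in that of type I interferon. In both KO tumours 8 of the 21 lay higher than in both WT tumours (over all genes, 16.1%), and 5 of the 24 of the type I interferon list. limma called 0 of either list, and 8 and 4 lay higher at an unadjusted p under 0.05 (over all genes, 2.34%). Socs1, a feedback inhibitor of interferon signalling, had 656.2 and 495.6 in the WT and 1645.9 and 1056.6 in the KO tumours (1.19), and the transcription factor gene Irf1 had 6261.7 and 6068.0 against 14942.2 and 8087.2 (0.83). Ifng itself, below the expression filter, had 177.5 and 106.5 against 396.1 and 177.8. Iigp1, a GTPase gene of defence inside cells, had 7934.7 and 6121.1 in the WT and 23599.3 and 9663.8 in the KO tumours (1.11), and Tap1, the peptide transporter of MHC class I presentation, had 2362.3 and 1811.7 against 5166.6 and 2534.4 (0.80, but -0.12 over the mean of its probe sets). Cd274, which encodes the checkpoint ligand PD-L1, had 734.7 and 952.6 against 2453.1 and 1128.6 (0.98), and Pdcd1lg2, which encodes PD-L2, had 330.3 and 354.4 against 766.5 and 500.6 (0.83). Acod1, which makes the antimicrobial metabolite itaconate in macrophages, stood apart in KO tumour 1, with 2004.9 against 343.5 to 434.6 in the other 3 tumours. The receptor gene Ifngr1 lay lower in both KO tumours, with 3677.6 and 3781.4 in the WT and 2529.3 and 2288.5 in the KO tumours (-0.63, limma adjusted p = 0.704). At day 4 the medians of both interferon lists were negative (-0.39 and -0.54).

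**Figure D4:**
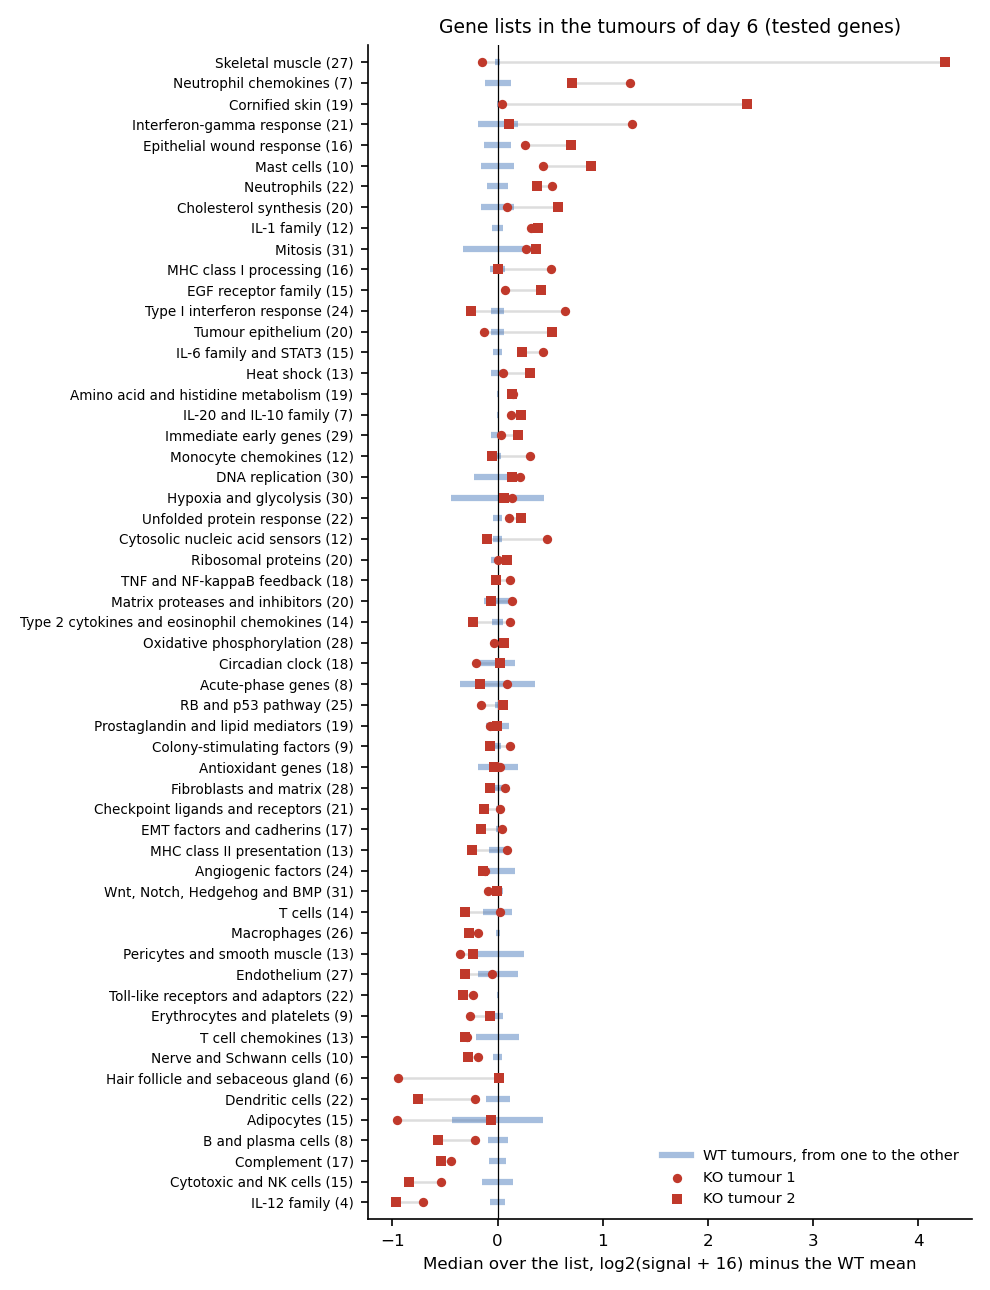
Median over the tested genes of 56 lists of log2(signal + 16) in KO tumour 1 (circle) and KO tumour 2 (square), relative to the WT mean of each gene, with the number of tested genes in brackets. The blue bar has the length of the difference between the WT tumours and is centred on 0. Skeletal muscle lies at -0.15 and 4.25 and complement at -0.44 and -0.54 in KO tumours 1 and 2.

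Of 13 tested genes of pericytes and smooth muscle, 12 were negative and 5 lay lower without overlap (over all genes, 20.9%), with a median of -0.20, and the WT tumours differed by 0.51. Rgs5, a pericyte marker, had 7020.5 and 4365.2 in the WT and 4030.5 and 2121.1 in the KO tumours (-0.92, or -0.46 without KO tumour 2), and Tagln, of smooth muscle and myofibroblasts, had 3346.9 and 2353.1 against 1667.1 and 1457.1 (-0.84). Of 27 tested endothelial genes, 5 lay lower and 3 higher without overlap, shares at or below those of all genes (20.9% and 16.1%). The angiopoietin receptor gene Tek had 945.4 and 599.8 against 455.6 and 438.4 (-0.73), and the VEGF receptor gene Flt1 had 657.5 and 809.8 against 1185.6 and 930.5 (0.52). Tgfb3 and Tgfbr1, a ligand and the type I receptor of the TGF-beta pathway, had log2 fold changes of -0.89 and -0.56. Tgfbr1 had 7334.0 and 7441.2 in the WT and 5092.7 and 4891.4 in the KO tumours, close within each genotype (limma adjusted p = 0.704). Itgb3, the integrin beta 3 chain of platelets and activated vessels, had 659.2 and 803.9 against 272.0 and 352.4 (-1.19, limma adjusted p = 0.704).

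Adipocyte genes followed single tumours. Adipoq, which encodes the hormone adiponectin, had 2044.3 in WT tumour 1, 135.7 in WT tumour 2, 76.0 in KO tumour 1 and 160.7 in KO tumour 2. The summed signal of the 15 tested genes was 56994 and 28832 in the WT and 22600 and 43489 in the KO tumours, and overlapped. Fabp4, a fatty acid carrier of adipocytes, endothelium and macrophages, did not overlap, with 14095.0 and 9850.6 against 5788.5 and 5901.6 (-1.01, limma adjusted p = 0.713). Its 4 probe sets gave -1.33 to 0.33. The part of fat tissue in the values of Fabp4 and of Lpl, given above, was not tested.

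The 15 tested genes of the EGF receptor family had a median of 0.07 in KO tumour 1 and 0.41 in KO tumour 2, which held skin RNA. Without overlap 6 lay higher and 1, Spry4, lower (over all genes, 16.1% and 20.9%). Hbegf, an EGF receptor ligand, had 2375.8 and 2372.8 in the WT and 3387.9 and 4443.4 in the KO tumours (0.70 ± 0.15, limma adjusted p = 0.704), and Errfi1, the feedback inhibitor of the EGF receptor, had 9561.1 and 8378.6 against 13963.3 and 16483.0 (0.76). Btc, a further ligand, had 997.9 and 794.7 against 1106.6 and 1821.5 (0.66, or 0.31 without KO tumour 2). From another list, Bmp2, a bone morphogenetic protein gene, had 304.2 and 210.9 in the WT and 583.9 and 1110.7 in the KO tumours (1.61, limma adjusted p = 0.711). In Hbegf, Errfi1, Btc and Bmp2, KO tumour 2 held the highest value, and KO tumour 1 also lay above both WT tumours. Krt16, a keratin gene of wounded epidermis, was high in KO tumour 2 alone, with 74.5 and 74.6 in the WT and 88.4 and 1307.6 in the KO tumours.

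**Figure D5:**
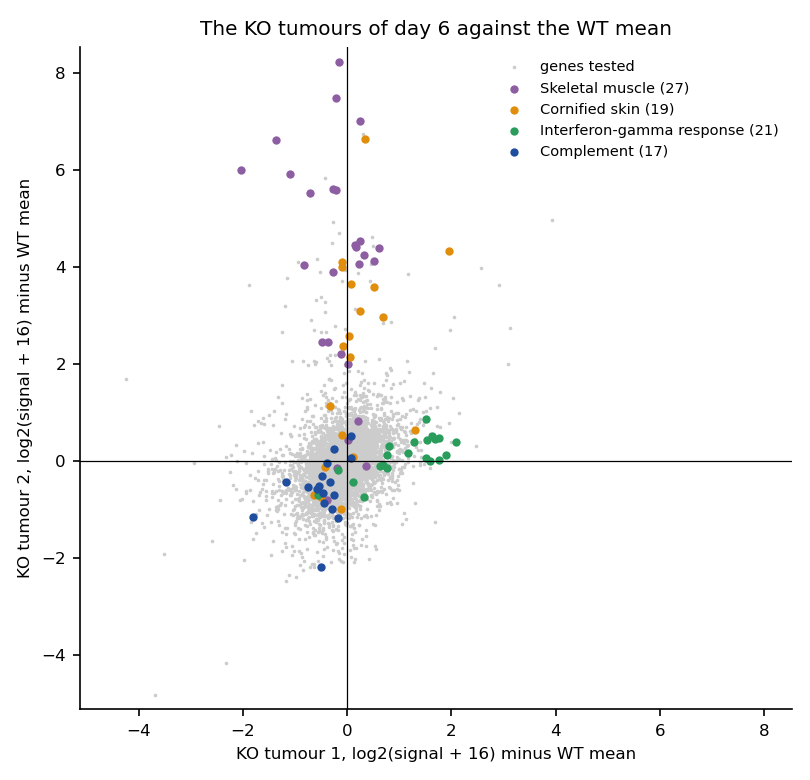
Log2(signal + 16) of each tested gene in KO tumour 2 against KO tumour 1, both relative to the WT mean, with 4 lists in colour. Muscle (purple) and cornified skin (orange) genes lie high in KO tumour 2 alone, genes of the interferon-gamma response (green) lie to the right, high in KO tumour 1, and complement genes (blue) lie mostly below 0 in both.

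Genes of growth and metabolism differed by small amounts. Of 31 tested genes of mitosis, 30 had a positive log2 fold change and 9 lay higher in both KO tumours (over all genes, 16.1%), with a median of 0.31. The WT tumours differed from each other by 0.65, and the median was 0.66 without WT tumour 1 and -0.03 without WT tumour 2. Top2a, the topoisomerase of dividing cells, had 8122.5 and 5312.9 in the WT and 9911.5 and 9960.5 in the KO tumours (0.60). Its 3 probe sets gave -0.02 to 0.60. At day 4, 30 of the 31 genes were positive as well, with a median of 0.61. Cdk6, a kinase of the G1 phase, had 4615.0 and 4739.2 against 6970.0 and 6431.4 (0.52 ± 0.11, limma adjusted p = 0.704), while Cdkn1b, the inhibitor p27, had 4768.2 and 7658.3 against 3775.3 and 4081.7 (-0.62). The 3 probe sets of Cdk6 gave -0.02 to 0.52. Of 20 tested genes of cholesterol synthesis, 18 were positive and 5 lay higher without overlap (over all genes, 16.1%), with a median of 0.38. It was 0.09 in KO tumour 1 and 0.57 in KO tumour 2. Of 22 tested genes of the unfolded protein response, 20 were positive, 9 without overlap (over all genes, 16.1%), with a median of 0.11. The chaperone gene Hyou1 had 3327.2 and 3200.3 against 3996.4 and 4282.8 (0.34, but -0.03 over the mean of its probe sets). Of the 30 tested genes of hypoxia and glycolysis, 1 lay higher and 0 lower without overlap (over all genes, 16.1% and 20.9%). The WT tumours differed by -0.88 in the median of this list.

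Some genes of small p fall into none of these groups. Rbm45, which encodes an RNA-binding protein, had 1011.8 and 799.5 in the WT and 1870.5 and 1727.9 in the KO tumours (0.99 ± 0.16, limma adjusted p = 0.406), and 1.17 at day 4. Prex1, an activator of the GTPase Rac in neutrophils and macrophages, had 1146.4 and 995.4 against 535.3 and 492.6 (-1.03 ± 0.19, limma adjusted p = 0.704), and -0.94 at day 4. Rnf19b, a ubiquitin ligase gene of NK cells and macrophages, had 1988.2 and 2581.9 against 5956.5 and 4131.0 (1.13, limma adjusted p = 0.704), and -0.14 at day 4.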

How the data were processed

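RNA of MOPC tumours was measured on Affymetrix mouse arrays, 2 tumours per genotype and day. The authors deposited 1 linear signal intensity per probe set, made with MAS5 and scaled to a 2% trimmed mean of 1000. No MAS5 version is given in the sources used here. The labels and the study's methods give different amounts of RNA per array. Of 45101 probe sets, 34958 had 1 gene symbol in the platform annotation, 932 several and 9211 none. The probe set with the highest mean over 8 arrays stood for each of 18194 genes, and 12976 genes passed a filter on the mean log2 value at the 40th percentile over the probe sets. Values were log2(signal + 16), and limma 3.58.1 (R 4.3.3) fitted them as 4 groups with a trend, with 4 residual degrees of freedom and Benjamini-Hochberg adjustment. The fit was tested on simulated data. The number of arrays limits the precision. Alternatives were quantile normalization, median centring, pseudocounts of 1 and 64, other filters and probe set rules, a fit of the day 6 arrays only, a fit without trend, blocking on replicate number, omitting single arrays, and the methods' t-test. Named were the genes called, the 15 highest and 15 lowest separated genes, the 8 smallest p in each direction, up to 3 members per direction and 1 of least change of each of 57 lists, Tlr3, Tlr7, Tlr9, Il24, Il6, Ifng, cell type markers and the 6 genes farthest apart in each tumour. Members of lists named outside this rule were chosen after their values were seen. Gene order came from GRCm38.p6. The groups compared and the gene lists were chosen with earlier results of these data known. Per-gene detection calls were not used here.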

Additional observations from a re-analysis of the deposited data

How the results depend on the processing

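The number of genes called by limma was 2 under quantile normalization, median centring, a pseudocount of 64, no filter, the mean of all probe sets and the probe set brightest at day 6. It was 0 with a pseudocount of 1, a filter at the 60th percentile, a fit to day 6 alone and no trend. Leaving out 1 array in turn gave 0 to 26 called genes, 17 to 161 genes separated upwards, 20 to 180 separated downwards, 0 to 9 genes in the difference between the days and 0 to 5 separated neighbours of the Tlr genes. A comparison of 1 tumour with 2 separates more genes by construction. The 17 and 20 separated genes became 8 and 7 with a pseudocount of 64, 64 and 107 with no filter, and 4 and 3 with a filter at the 60th percentile, which tests fewer genes. The genes that stood apart in 1 tumour, 4, 4, 7 and 70 in WT tumours 1 and 2 and KO tumours 1 and 2, became 0 in WT tumour 2 and 3 in KO tumour 1 with a pseudocount of 64. With the 60th percentile they became 0 in WT tumour 2, 1 in KO tumour 1 and 11 in KO tumour 2, and with the mean of all probe sets 2 in WT tumour 1 and 3 in KO tumour 1. Single genes were followed for 86 of those named, which leaves out others named above, Ramp1 and Kcnj15 among them. Of 1684 values of these 86 genes, 2 changed sign, Hyou1 (-0.03) and Tap1 (-0.12) with the mean of all probe sets, and the cause was not tested. Of the rest, 20 lost and 14 gained a call. Only Hal and Cd209a were called in the main fit, so all 20 losses were values of these 2 genes. The 14 gains were values of other genes. The methods' t-test gave 760 genes at an unadjusted p of 0.05 and 0 after Benjamini-Hochberg adjustment. Of 893 medians of the gene lists, 79 moved by more than the spread between tumours.

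With the replicate number as a block, limma called 0 genes at day 6 and 0 in the difference between the days. The correlation of same-numbered deviations was -0.03 between the WT and KO tumours of day 6, and -0.12 to 0.27 over the other 5 pairs of groups, so not every pair was above 0.1 and the samples were taken to share only a number.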

Other observations

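The values here were looked for after the results above were seen. 5 of the 37 separated genes, Spint1, Tmem87a, Gatm, Hdc and Fbln7, lay within 101 consecutive tested genes of mouse chromosome 2, which carries none of the targeted genes. That is 4.95% of this stretch, against 0.285% of all genes tested, and 5 was also the highest number in any stretch of this length. The ends of the stretch were set at Spint1 and Fbln7 themselves, so this share and this rank are raised by that choice. The 5 genes are not next to each other, with 17, 34, 19 and 26 tested genes between them, and they lay both higher (Tmem87a, Gatm, Hdc) and lower (Spint1, Fbln7) in the KO tumours. The other 96 genes had a median log2 fold change of -0.03. The cause was not tested.

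Among 5218 genes below the expression filter, 47 were separated upwards and 87 downwards by at least 1 on the log2 scale. At such signals the spread between arrays is large, and these genes are not named.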
